A study of Mus musculus with 26 samples.

Results

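The NF-kB transcription factors and the kinases that release them were followed across a mouse cell line with a natural and a synthetic interleukin-22 receptor. The set holds the subunit genes Nfkb1, Nfkb2, Rel, Rela and Relb and the kinase or scaffold genes Chuk, Ikbkb, Ikbkg, Ikbke and Map3k14, and its members were found as the probe sets annotated to exactly 1 of these symbols. Of the 10 genes, 8 had such a probe set, 1 each, among 19938 genes. Nfkb1 and Chuk were not analysed here, so every statement below is about the other 8.

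All samples were Ba/F3 cells, a murine pro-B line that depends on interleukin-3 or on Hyper-IL-6, carrying the shared cytokine receptor chain gp130 and maintained with Hyper-IL-6, a fusion of IL-6 and its soluble receptor. The natural receptor cells carried IL-10R2 and IL-22Rα1 and were left untreated (n = 4) or given IL-22 (n = 4). The synthetic receptor cells carried mCherryVHH-IL-10R2 and GFPVHH-IL-22Rα1, in which a nanobody (VHH) against a fluorescent protein makes up the binding part. They were left untreated (n = 6), given GFP-mCherry, a fusion that both nanobodies can bind (n = 6), or given mCherry-Fc (n = 6). Cells were washed, starved of serum for 4 h and stimulated for 2 h with 100 ng/ml of protein, and total RNA was read on 26 Affymetrix arrays. The series' design text gives the purpose as detailing what the receptor constructs do overall and whether they act free of background. A cell line with introduced receptor genes stands in here for cells that carry them by nature, no group received an unrelated protein, and nothing in the labels says that arrays of a group came from separate cultures. The p-values therefore measure the spread between these samples, which may be technical.

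NF-kB proteins act as pairs of subunits that bind kappaB sites in DNA. At rest, inhibitors of the IkB family hold most of them in the cytoplasm. In the canonical pathway a complex of a pair of kinases, encoded by Chuk and Ikbkb, and the scaffold encoded by Ikbkg marks IkB proteins for breakdown, which frees dimers such as those of RelA, encoded by Rela, and c-Rel, encoded by Rel. In the non-canonical pathway NIK, encoded by Map3k14, acts through the Chuk product to turn p100, the product of Nfkb2, into p52, the partner of RelB. In B-lineage cells these subunits are known for their part in survival, activation and cytokine genes. IL-22 itself is known to signal mainly through JAK kinases and STAT3.

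Several arrays stood apart before any comparison. Correlations between arrays of a group over all genes were 0.990 to 0.998, and the lowest mean, 0.990, belonged to replicate 5 of the IL-22 group. Of 11 measured B-lineage markers, 3 lay above the median gene (Cd79a, Cd79b and Vpreb2), while Pax5, at 5.39 log2 units, and Ebf1, at 4.67, lay below it. All 3 interleukin-3 receptor chains lay above it, and none of 6 T-cell markers did. Both measured erythroid markers (Klf1 and Epor) and 3 of 5 fibroblast markers, the collagen genes Col1a1, Col1a2 and Col3a1, lay above it too. Each probe set has its own scale, so a place above or below the median gene does not by itself show whether a gene is expressed. Some markers were called with the ligands too, against 11.4% of all genes with IL-22, 26% with GFP-mCherry and 26.9% with mCherry-Fc. Both erythroid markers were lower with IL-22, with a mean of 7.29 to 7.64 against 8.09 to 8.16 untreated. Of the 3 interleukin-3 receptor chains 2 were higher with IL-22. With either ligand of the synthetic receptor 1 erythroid marker was higher and 1 lower. With mCherry-Fc 4 of 5 fibroblast markers were lower (5.99 to 6.14 against 6.14 to 6.45), as were 3 of 6 T-cell markers (5.39 to 5.59 against 5.44 to 5.77), and with GFP-mCherry 2 of 5 and 1 of 6 were. Their part in the members' changes was not tested. The 7 myeloid markers split the natural receptor cells by replicate number. Their mean log2 level was 6.13 to 6.21 in the natural arrays numbered 2 and 3 (untreated) and 1 to 3 (IL-22), and 7.71, 8.00 and 7.97 in untreated replicates 4 and 5 and IL-22 replicate 5. Mpo, which encodes a granule enzyme of neutrophils, was at 6.97 to 7.19 in the former and 10.62 to 11.00 in the latter. Itgam, an integrin chain of myeloid cells, stood at 8.73 to 8.98 against 11.73 to 12.05, Lyz2 at 5.11 to 5.24 against 7.53 to 8.21, and Adgre1 at 4.72 to 4.83 against 6.62 to 7.06. Csf1r, Cd14 and Elane differed by less. In the synthetic receptor cells the mean of the 7 was 5.42 to 5.72. The natural arrays 4 and 5 make up 2 of 4 untreated and 1 of 4 IL-22 arrays, so the members' results in the natural receptor cells are also given with these 3 arrays left out, an alternative chosen after seeing the data. Their part in any result beyond that was not tested.

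The sequences at the members' start sites were searched for kappaB sites. Windows of 300 bases, from 250 before to 50 after a start site, were taken from RefSeq (GRCm38.p6), with 12 windows for 7 of the 10 genes and none for Nfkb1, Relb and Ikbkb. The kappaB consensus, searched on both strands, lay in 4 of these windows, which belong to Nfkb2 and Rel, and in 1480 of all 32851 windows (4.51%). The 4 windows stand for 2 of the 7 genes, and some Nfkb2 windows overlap, so they are not separate counts. As given below, Nfkb2 rose and Rel fell with GFP-mCherry. The 1 window of Ikbke held no match. The motif TTCNNNGAA, which STAT proteins can bind and which reads the same on both strands, lay in 2 of the 12 windows, at Nfkb2 and Chuk, and in 2726 of all windows (8.3%). The 2 windows at separate Nfkb2 start sites and the Rel window are shown 5′ to 3′ on the gene's strand, with kappaB matches in capitals.
Nfkb2, chr19:46304487-46304786, plus strand: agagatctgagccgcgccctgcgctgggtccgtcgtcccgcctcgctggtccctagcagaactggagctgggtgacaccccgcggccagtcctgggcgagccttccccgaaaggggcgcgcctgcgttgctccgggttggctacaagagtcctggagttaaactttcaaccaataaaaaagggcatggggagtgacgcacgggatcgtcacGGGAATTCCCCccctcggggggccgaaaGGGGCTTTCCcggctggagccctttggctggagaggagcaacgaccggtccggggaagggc
Nfkb2, chr19:46305445-46305744, plus strand: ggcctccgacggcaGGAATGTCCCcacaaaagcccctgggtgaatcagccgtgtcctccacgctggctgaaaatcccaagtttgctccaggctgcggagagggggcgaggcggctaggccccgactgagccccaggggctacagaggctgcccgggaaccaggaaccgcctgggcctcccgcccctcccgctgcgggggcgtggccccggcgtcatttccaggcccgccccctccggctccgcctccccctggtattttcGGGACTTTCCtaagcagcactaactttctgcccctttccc
Rel, chr11:23770920-23771219, minus strand: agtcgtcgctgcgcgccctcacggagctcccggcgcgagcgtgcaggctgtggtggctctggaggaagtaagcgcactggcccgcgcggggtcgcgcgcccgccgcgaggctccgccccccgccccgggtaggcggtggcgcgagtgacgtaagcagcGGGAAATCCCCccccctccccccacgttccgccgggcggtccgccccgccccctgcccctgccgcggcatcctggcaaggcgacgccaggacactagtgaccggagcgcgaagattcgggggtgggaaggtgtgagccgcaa
The first Nfkb2 window holds GGGAATTCCC from position -39 and GGGGCTTTCC from position -11, counted from the start site. It also holds the STAT motif TTCCCCGAA from position -148, apart from the kappaB matches. In the second Nfkb2 window GGAATGTCCC begins at -236 and GGGACTTTCC at +11, and another Nfkb2 window, which overlaps the second, holds that last match again. The Rel window has GGGAAATCCC from -92. In the first Nfkb2 window and in the Rel window a second match on the other strand begins 1 base further on and shares 9 bases. These matches are letters in a window and were not tested for binding.

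Nfkb2, which encodes p100, the precursor of p52, was higher with each ligand and by most with GFP-mCherry. In the natural receptor cells its log2 intensity was 8.75, 8.87, 8.65 and 8.74 in untreated replicates 2, 3, 4 and 5. After IL-22 it was 9.27, 9.41, 9.42 and 9.05 in replicates 1, 2, 3 and 5. All 4 IL-22 arrays lay above all 4 untreated ones, and the lowest was replicate 5. The mean went from 8.75 ± 0.09 to 9.29 ± 0.17 (SD, n = 4 each), a rise of 0.53 log2 units (SE 0.07, 1.45-fold, adjusted p = 2.72e-06). With natural replicates 4 and 5 left out the rise was 0.55 (adjusted p = 8.74e-06). Within the high replicate numbers, where the single IL-22 array borrows its spread from the other groups, it was 0.36 (adjusted p = 0.0689), in a range of 7.44e-08 to 0.0689 over the alternatives.

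In the synthetic receptor cells Nfkb2 stood at a lowest, median and highest value of 8.06, 8.14 and 8.20 untreated and of 9.19, 9.27 and 9.35 with GFP-mCherry. With mCherry-Fc it stood at 8.17, 8.28 and 8.42. The GFP-mCherry arrays shared no value with either other group, while the lowest mCherry-Fc array lay inside the untreated range. GFP-mCherry raised Nfkb2 by 1.13 (SE 0.06, 2.18-fold, adjusted p = 1.3e-13), with values of 1.06 to 1.23 over the alternatives. mCherry-Fc raised it by 0.16 (SE 0.06, 1.12-fold, adjusted p = 0.0413). That smaller call was lost under quantile normalization (0.07, adjusted p = 0.397), within the low replicate numbers (0.09, adjusted p = 0.27) and without any of untreated replicates 9, 11, 12 or 14 or mCherry-Fc replicates 13, 14 or 15 (adjusted p 0.0585 to 0.107), in a range of 0.00264 to 0.397 over the alternatives.

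Relb encodes RelB, the subunit that pairs mainly with p52, and its pattern was close to that of Nfkb2. In the natural receptor cells it was 7.88, 7.98, 7.76 and 7.66 untreated and 8.17, 8.57, 8.27 and 7.84 after IL-22, in the same replicate order. IL-22 replicate 5 fell among the untreated arrays and the other three lay above them. The difference was 0.39 (SE 0.12, 1.31-fold, adjusted p = 0.0278), and 0.41 (adjusted p = 0.0461) with natural replicates 4 and 5 left out. This call depended on the fit. It was lost with the replicate number as a block (adjusted p = 0.0702), with only the natural groups fitted (0.148), within the high numbers (0.13, adjusted p = 0.747), and without IL-22 replicate 2 (0.17) or 3 (0.0808) or untreated replicate 4 (0.0711) or 5 (0.102). Over all alternatives the adjusted p ran from 0.00146, which was reached without IL-22 replicate 5 at a difference of 0.52, to 0.747.

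In the synthetic receptor cells the lowest, median and highest Relb values were 7.02, 7.27 and 7.50 untreated, 7.93, 8.12 and 8.23 with GFP-mCherry, and 7.04, 7.18 and 7.29 with mCherry-Fc. The GFP-mCherry arrays were clear of both other groups, which overlapped each other. Relb rose by 0.82 with GFP-mCherry (SE 0.10, 1.77-fold, adjusted p = 4.94e-07), by 0.60 within the low and 1.05 within the high replicate numbers. The untreated cells themselves split by number, at 7.50, 7.49 and 7.37 in replicates 7, 9 and 11 and 7.02, 7.16 and 7.16 in replicates 12, 13 and 14. With mCherry-Fc the difference was -0.11 (95% interval -0.31 to 0.09, adjusted p = 0.422), and within the low numbers it was -0.29 (adjusted p = 0.0484).

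Rel encodes c-Rel, the subunit most tied to lymphoid cells, and it fell with both ligands of the synthetic receptor. Its lowest, median and highest values there were 10.32, 10.55 and 10.84 untreated, 10.16, 10.22 and 10.32 with GFP-mCherry, and 9.98, 10.15 and 10.27 with mCherry-Fc. All 6 arrays of each treated group lay below the untreated ones, although the highest GFP-mCherry array and the lowest untreated array both read 10.32 at this rounding. The fall was 0.32 with GFP-mCherry (SE 0.10, adjusted p = 0.017) and 0.42 with mCherry-Fc (SE 0.10, adjusted p = 0.00279). The mCherry-Fc call held under every alternative (adjusted p 6.55e-06 to 0.0258). The GFP-mCherry call was lost when each array was centred on its median (-0.22, adjusted p = 0.135) and within the low replicate numbers (-0.15, adjusted p = 0.0692), in a range of 0.000129 to 0.135. Here too the untreated arrays split by number, at 10.32, 10.44 and 10.41 in replicates 7, 9 and 11 and 10.70, 10.84 and 10.67 in replicates 12, 13 and 14.

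In the natural receptor cells Rel was 10.48, 10.45, 10.13 and 10.15 untreated and 10.57, 10.68, 10.66 and 10.00 after IL-22. The arrays numbered 4 and 5 were the low ones in both groups, and the groups overlapped. The difference of 0.17 (95% interval -0.08 to 0.42, adjusted p = 0.498) did not pass the test. It was also 0.17 with natural replicates 4 and 5 left out (adjusted p = 0.464), and 0.33 without IL-22 replicate 5 alone (adjusted p = 0.0295).

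Rela encodes RelA, also called p65, the main activating subunit of the canonical pathway, and it rose with IL-22 in the natural receptor cells. Its values were 10.25, 10.32, 10.06 and 10.06 untreated and 10.79, 10.82, 10.76 and 10.14 after IL-22. IL-22 replicates 1, 2 and 3 stood above every untreated array, and replicate 5 lay among the untreated ones. The difference was 0.46 (SE 0.10, 1.37-fold, adjusted p = 0.00185), 0.51 (adjusted p = 2.18e-05) with natural replicates 4 and 5 left out, and 0.08 (adjusted p = 0.721) within the high numbers. With only the natural groups fitted the adjusted p was 0.104, and over all alternatives it ran from 1.7e-07 to 0.721. In the synthetic receptor cells the means were 10.19 ± 0.06 untreated, 10.15 ± 0.06 with GFP-mCherry and 10.09 ± 0.10 with mCherry-Fc (SD, n = 6 each). Their differences from untreated were -0.04 (95% interval -0.20 to 0.13, adjusted p = 0.773) and -0.10 (-0.26 to 0.07, adjusted p = 0.394).

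**Figure D1:**
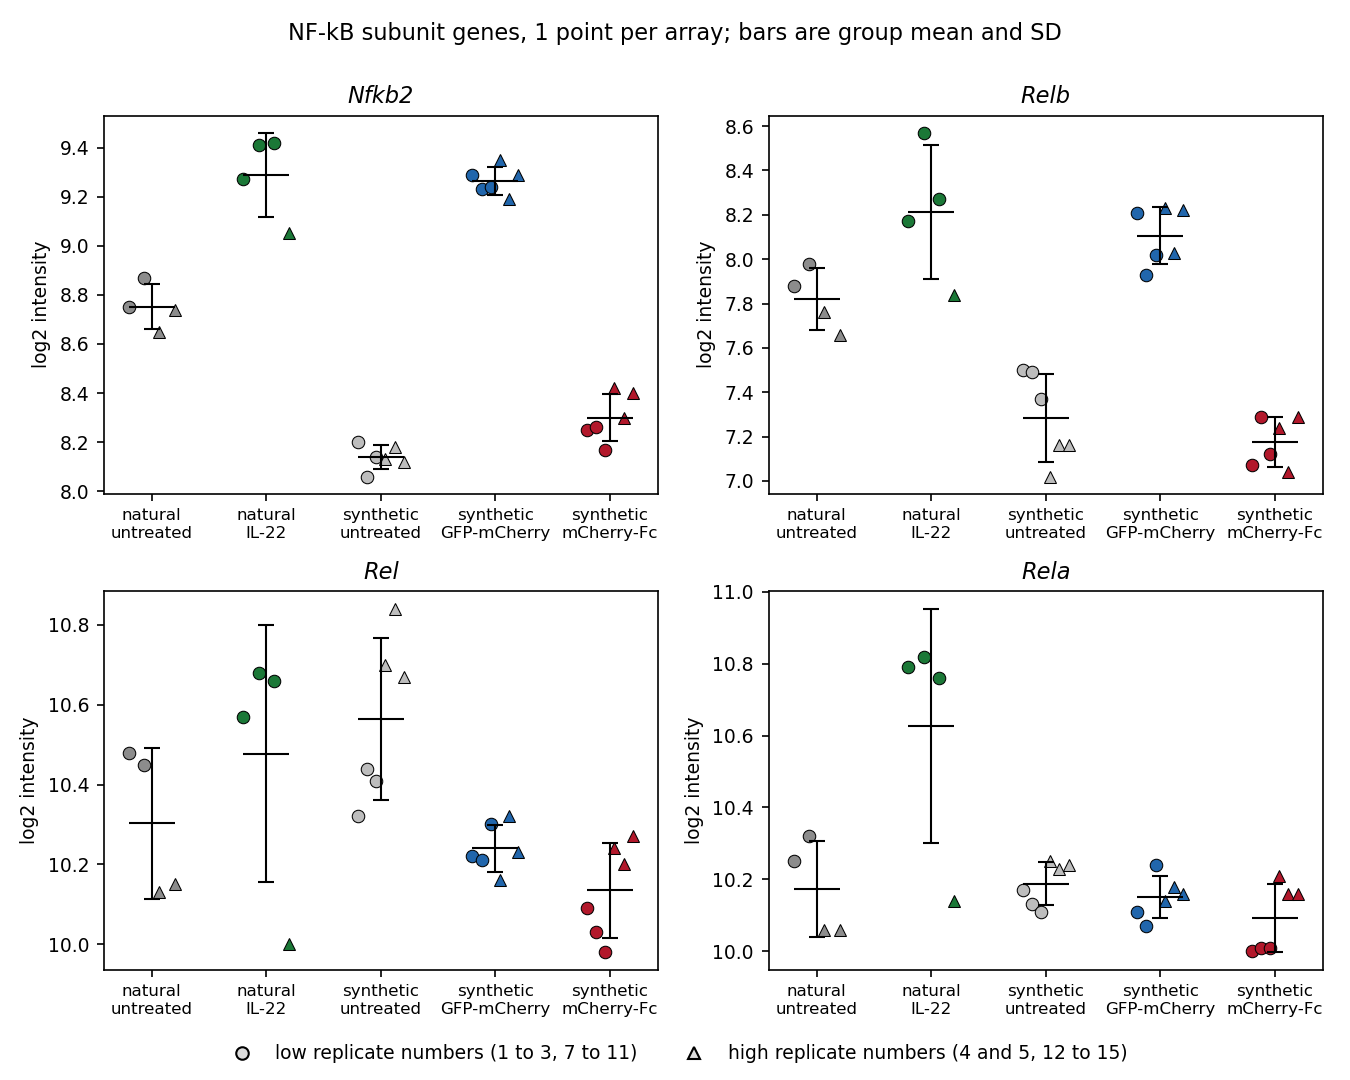
Log2 intensity (vertical axis) of the 4 measured subunit genes in each of 26 arrays, by group (horizontal axis); horizontal bars are group means and error bars the SD, circles are low and triangles high replicate numbers. Nfkb2 and Relb show the GFP-mCherry arrays clear of the untreated and mCherry-Fc arrays, and IL-22 replicate 5 is the lowest IL-22 array in all 4 panels.

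Ikbke encodes IKKε, an IKK-related kinase better known from interferon and inflammatory signalling, and it showed the widest range of group means of the 8 genes, 1.37 log2 units. Its lowest, median and highest values in the synthetic receptor cells were 6.53, 6.62 and 6.73 untreated, 7.23, 7.34 and 7.56 with GFP-mCherry, and 6.62, 6.67 and 6.79 with mCherry-Fc. Every GFP-mCherry array was above every array of the other groups of these cells. The rise with GFP-mCherry was 0.75 (SE 0.11, 1.69-fold, adjusted p = 8.95e-06), with 0.68 to 0.86 over the alternatives, while mCherry-Fc gave 0.08 (95% interval -0.15 to 0.30, adjusted p = 0.624). In the natural receptor cells Ikbke was 7.80, 7.81, 8.13 and 8.20 untreated and 7.64, 7.88, 7.61 and 8.57 after IL-22. The arrays numbered 4 and 5, with the high myeloid markers, were the highest of each group. IL-22 gave a difference of -0.06 (95% interval -0.33 to 0.21, adjusted p = 0.89), -0.09 (adjusted p = 0.68) with natural replicates 4 and 5 left out, and -0.28 (adjusted p = 0.0483) without IL-22 replicate 5 alone. Within the high numbers its sign turned, to 0.40, with no call.

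Map3k14, the gene of the kinase NIK, changed by little. Its values were 6.65, 6.58, 6.66 and 6.60 untreated and 6.83, 6.89, 6.84 and 6.88 after IL-22, and these groups did not overlap. The rise with IL-22 was 0.24 (SE 0.06, 1.18-fold, adjusted p = 0.0108). It kept that size but not the call with natural replicates 4 and 5 left out (adjusted p = 0.0628), within the low numbers (0.0679), within the high numbers (0.255) and with only the natural groups fitted (0.0523), in a range of 0.00219 to 0.255 over the alternatives. In the synthetic receptor cells the lowest, median and highest values were 6.43, 6.50 and 6.58 untreated, 6.49, 6.65 and 6.78 with GFP-mCherry, and 6.55, 6.61 and 6.70 with mCherry-Fc. GFP-mCherry gave a rise of 0.14 (SE 0.05, 1.10-fold, adjusted p = 0.0471). This call was lost under a trended robust prior and under array weights (adjusted p = 0.0668 in each), with only its own groups fitted (0.106), within the low numbers (0.584) and without any of 9 single arrays, namely GFP-mCherry replicates 9, 12, 13 and 14 and untreated replicates 7, 9, 12, 13 and 14 (0.0514 to 0.129), in a range of 0.00136 to 0.584. With mCherry-Fc the difference was 0.11 (adjusted p = 0.112), which became 0.20 (adjusted p = 0.00633) after quantile normalization and 0.22 (adjusted p = 0.00391) after centring on array medians.

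Ikbkb encodes IKKβ, the kinase that acts on IkB proteins in the canonical pathway. It was at 8.75, 8.80 and 8.97 (lowest, median, highest) in untreated synthetic receptor cells, 8.91, 8.95 and 9.09 with GFP-mCherry and 8.89, 9.03 and 9.20 with mCherry-Fc. Both treated groups overlapped the untreated one. mCherry-Fc raised Ikbkb by 0.21 (SE 0.07, 1.16-fold, adjusted p = 0.0256). The call was lost under quantile normalization (0.12, adjusted p = 0.179), within the low numbers (adjusted p = 0.0584) and without any of untreated replicates 7, 9 or 11 or mCherry-Fc replicates 13 or 15 (0.0539 to 0.0721), in a range of 0.00182 to 0.179. GFP-mCherry gave 0.15 (95% interval 0.01 to 0.29, adjusted p = 0.109). That value passed the test under 5 alternatives, among them centring on array medians (adjusted p = 0.014) and the low numbers alone (adjusted p = 0.0299), in a range of 0.014 to 0.433. In the natural receptor cells Ikbkb was 8.92, 8.71, 8.50 and 8.50 untreated and 8.66, 8.70, 8.70 and 8.45 after IL-22, a difference of -0.03 (95% interval -0.20 to 0.15, adjusted p = 0.928) and of -0.13 (adjusted p = 0.498) with natural replicates 4 and 5 left out.

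Ikbkg encodes NEMO, the scaffold of the IKK complex, and was the member called lower with IL-22. It was 7.91, 7.91, 7.91 and 8.17 untreated and 7.65, 7.72, 7.63 and 7.98 after IL-22. Replicate 5 was the high array of each group. The difference was -0.23 (SE 0.08, adjusted p = 0.0445), and -0.25 (adjusted p = 0.0335) with natural replicates 4 and 5 left out. It was lost after centring on array medians (adjusted p = 0.134), with low against high numbers as a covariate (0.0582), with only the natural groups fitted (0.253), within the high numbers (-0.06, adjusted p = 0.897), and without IL-22 replicate 1 (0.156), 2 (0.104) or 3 (0.171) or untreated replicate 5 (0.207), in a range of 0.00236 to 0.897. In the synthetic receptor cells its means lay between 7.91 ± 0.09 and 8.00 ± 0.07 (SD, n = 6 each). Neither ligand passed the test there, with -0.04 (95% interval -0.16 to 0.09, adjusted p = 0.673) for GFP-mCherry and 0.05 (adjusted p = 0.573) for mCherry-Fc.

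**Figure D2:**
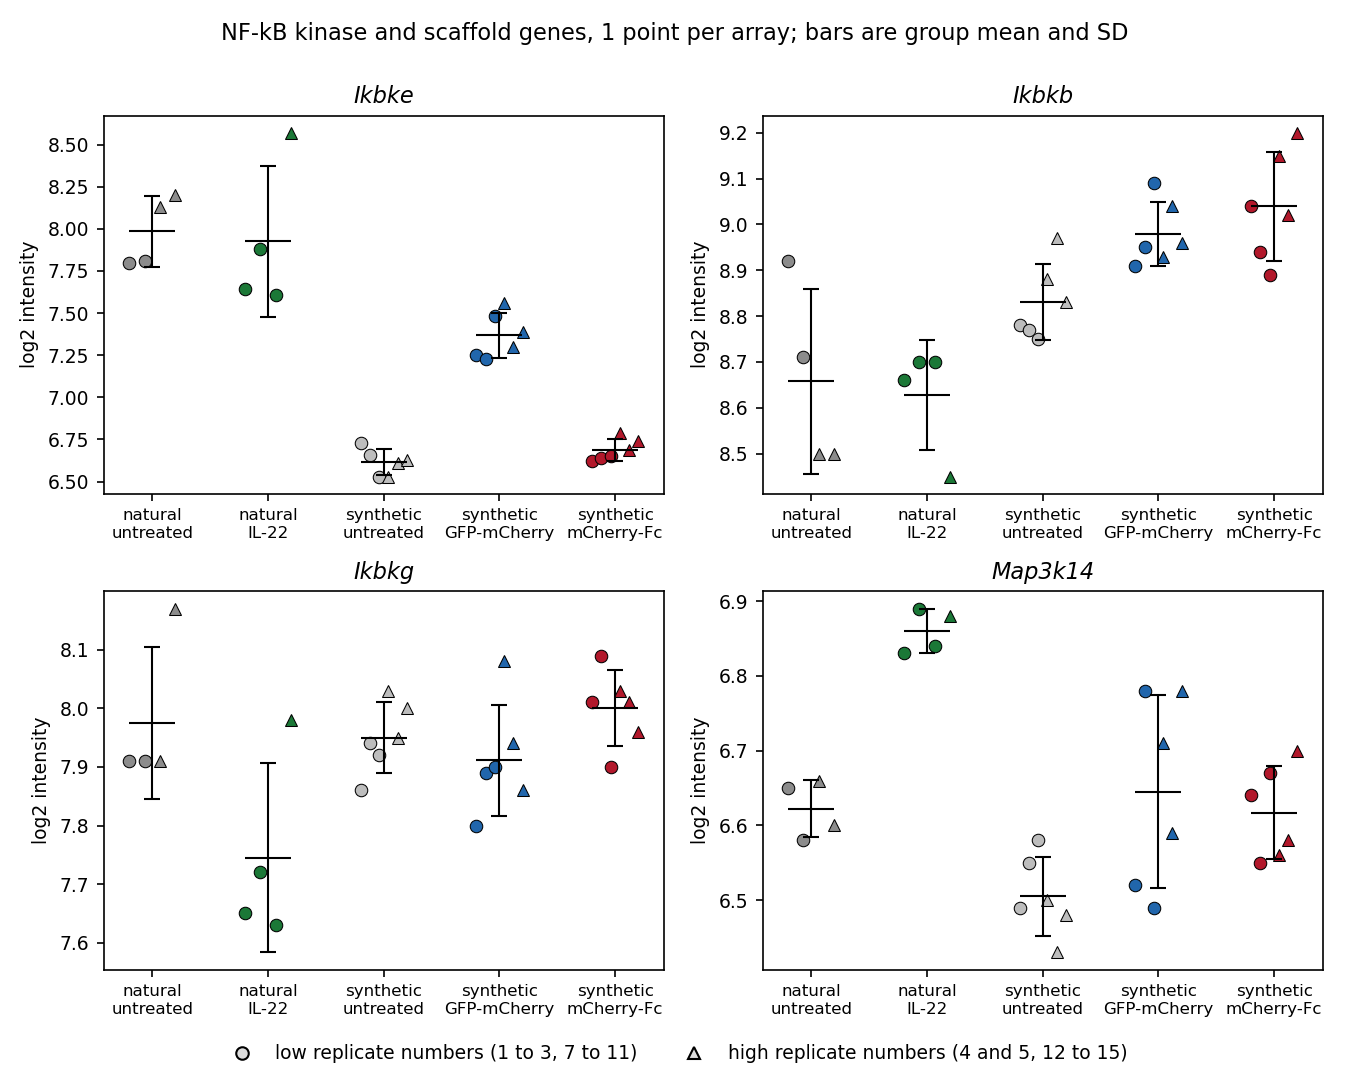
Log2 intensity (vertical axis) of the 4 measured kinase and scaffold genes in each array, by group (horizontal axis), with bars and symbols as for the subunits. Ikbke lies between 6.53 and 6.79 in untreated and mCherry-Fc-treated synthetic receptor cells, between 7.23 and 7.56 with GFP-mCherry, and at 7.61 or above in the natural receptor cells.

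Counted by comparison, IL-22 changed 5 of the 8 members, 4 higher and 1 lower, where 11.4% of all genes were called. The members' median was 0.21 against -0.02 for all genes. The groups did not overlap for 2 members, Nfkb2 and Map3k14, against 11.4% of all genes. Without natural replicates 4 and 5 the count was 4, against 12.3% of all genes, and it was 1 with only the natural groups fitted, against 6.13% of all genes. Within the high numbers it was 0, against 3.81%, and 3 had an unadjusted p under 0.05 by limma. GFP-mCherry changed 5 of 8, again 4 higher and 1 lower, against 26% of all genes, with a median of 0.14 against -0.04. Its groups did not overlap for 4 members (Nfkb2, Relb, Ikbke and Rel), against 14.1% of all genes. mCherry-Fc changed 3 of 8, Nfkb2 and Ikbkb higher and Rel lower, against 26.9% of all genes, and so few members cannot be set apart from that share. Only Rel did not overlap there, against 11.3% of all genes, and the median was 0.06 against -0.04. That count was 1 without untreated replicate 9 or 11 or without mCherry-Fc replicate 13 or 15. The ligands of the synthetic receptor share their untreated arrays. The members were chosen with earlier results of these data known, so counts above these shares describe the set and are no independent support. Centring each array on its median shifted the median of all genes by 0.10 with GFP-mCherry and 0.11 with mCherry-Fc, and raised the share of called genes that were higher from 54.8% to 88.5% and from 51.9% to 88.8%, while no member's called direction turned.

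The direct comparison of GFP-mCherry with mCherry-Fc asks how the synthetic receptor's ligands differ, and 3 of the 8 members passed it. Nfkb2 was 0.96 higher with GFP-mCherry (SE 0.06, 1.95-fold, adjusted p = 3.27e-12), Relb 0.93 higher (SE 0.10, 1.91-fold, adjusted p = 3.17e-07) and Ikbke 0.68 higher (SE 0.11, 1.60-fold, adjusted p = 0.000371). None of the 3 overlapped between the groups, against 2.96% of all genes. The background of calls was 1.09% of all genes, or 0.502% with the replicate number as a block. These 3 were called under every alternative run, and the other 5 under none. The other 5 differed by -0.09 to 0.10. Their intervals reached from -0.10 to 0.30 for Rel and from -0.11 to 0.23 for Rela, so a small difference in either direction was not resolved.

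The responses to the natural and the synthetic receptor's ligands were then compared as differences of differences. The GFP-mCherry response exceeded the IL-22 response by 0.59 for Nfkb2 (SE 0.09, adjusted p = 4.48e-05) and by 0.82 for Ikbke (SE 0.17, adjusted p = 0.0014). It fell short of it by -0.50 for Rel (SE 0.16, adjusted p = 0.0328) and -0.49 for Rela (SE 0.13, adjusted p = 0.00962). These 4 of 8 stand against 13.6% of all genes. With natural replicates 4 and 5 left out the 4 values were 0.57, 0.85, -0.49 and -0.54, and each was called, against 16.4% of all genes. For Rel the call was lost under 11 alternatives (adjusted p up to 0.117 within the high numbers, 0.0978 after median centring). These included leaving out IL-22 replicate 1, 2 or 3, natural untreated replicate 4 or 5, GFP-mCherry replicate 12, or synthetic untreated replicate 12 or 14 (0.0507 to 0.0882), and it ran down to 0.000655 without IL-22 replicate 5. Within the high numbers Rela (-0.16, adjusted p = 0.383) and Ikbke (0.43, adjusted p = 0.0888) were lost. The Relb difference of 0.43 (SE 0.15, adjusted p = 0.0623) missed the threshold and passed it under 10 alternatives, in a range of 0.00509 to 0.404, among them leaving out IL-22 replicate 2 (0.0115), natural untreated replicate 5 (0.0479), GFP-mCherry replicate 9 (0.0467) or synthetic untreated replicate 7 (0.0393) or 9 (0.044). Without IL-22 replicate 5 the Ikbkg difference of 0.27 was called as well (adjusted p = 0.0354). With natural replicates 4 and 5 left out the Ikbkg difference was 0.21, with no call (adjusted p = 0.128).

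Against IL-22 the mCherry-Fc response was lower for 4 of 8 members, against 13.4% of all genes. The differences were -0.37 for Nfkb2 (SE 0.09, adjusted p = 0.0071), -0.60 for Rel (SE 0.16, adjusted p = 0.0108), -0.55 for Rela (SE 0.13, adjusted p = 0.00419) and -0.50 for Relb (SE 0.15, adjusted p = 0.0285). With natural replicates 4 and 5 left out they were -0.39, -0.59, -0.60 and -0.52, each called, and Ikbkb (0.34, adjusted p = 0.0309) and Ikbkg (0.30, adjusted p = 0.0253) were called higher. In that fit 16.6% of all genes were called. Within the high numbers none of the 8 was called by limma, and 2 had an unadjusted p under 0.05. With the replicate number as a block Nfkb2 (adjusted p = 0.0696) and Relb (0.11) were lost and Ikbkg was gained (0.024). After centring on array medians Nfkb2 (-0.29, adjusted p = 0.0585) and Relb (-0.42, adjusted p = 0.0637) were lost. Relb was also lost with only the groups of the comparison fitted (0.0508) and without IL-22 replicate 2 (0.0845) or 3 (0.0597), natural untreated replicate 5 (0.069) or synthetic untreated replicate 7 (0.0505) or 9 (0.0522), in a range of 0.00249 to 0.908 over its alternatives. Ikbkg, at 0.28 (adjusted p = 0.0543) in the fit of all arrays, passed under 12 alternatives, in a range of 0.00539 to 0.868. Among them were centring on array medians (0.0191), array weights (0.0161) and the low numbers alone (0.0189). It also passed without IL-22 replicate 5 (0.00539), natural untreated replicate 4 (0.0482), synthetic untreated replicate 12 (0.0491) or mCherry-Fc replicate 10 (0.0416). Ikbke passed without IL-22 replicate 5 (0.35, adjusted p = 0.0412), which leaves high myeloid markers in untreated natural arrays only. With natural replicates 4 and 5 left out Ikbke was at 0.17 (adjusted p = 0.321). Both sets of differences rest on the same IL-22 and untreated arrays.

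Untreated, the lines already differed in 3 of the 8 members, all lower in the synthetic receptor cells, against 15.2% of all genes. Ikbke was 1.37 log2 units apart (-1.37, SE 0.12, 2.59-fold, adjusted p = 3.53e-09), Nfkb2 0.61 (-0.61, SE 0.07, 1.53-fold, adjusted p = 1.15e-07) and Relb 0.54 (-0.54, SE 0.11, 1.45-fold, adjusted p = 0.000838). All 6 synthetic arrays lay below all 4 natural ones for each of them, against 10.0% of all genes whose groups did not overlap. Of the 7 myeloid markers, 4 were lower in the synthetic receptor cells too. With natural replicates 4 and 5 left out, where Itgam but not Mpo is still higher in the natural cells, the values were -1.19 for Ikbke (adjusted p = 3.56e-10), -0.67 for Nfkb2 (adjusted p = 2.32e-07) and -0.64 for Relb (adjusted p = 0.000681). All 3 were called under every alternative, while 9.40% of all genes were called with natural replicates 4 and 5 left out. Within the high numbers Rel (0.60, adjusted p = 9.28e-05), Rela (0.18, adjusted p = 0.0286) and Ikbkb (0.39, adjusted p = 0.00153) were called higher in the synthetic receptor cells as well, and Ikbkb was so without natural untreated replicate 2 (0.26, adjusted p = 0.0179). The line and its receptor cannot be told apart, since each receptor was studied in its own cells.

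In order of group means, Nfkb2 ran from untreated synthetic through mCherry-Fc, untreated natural and GFP-mCherry to IL-22. The GFP-mCherry and IL-22 groups overlapped, with 9.19 to 9.35 for GFP-mCherry and 9.05 to 9.42 for IL-22. Relb had the same order at its upper end, with 7.93 to 8.23 for GFP-mCherry and 7.84 to 8.57 for IL-22, and its lowest groups, mCherry-Fc and untreated synthetic, overlapped. For Ikbke the order ended differently, since GFP-mCherry (7.23 to 7.56) stayed below both natural groups (7.61 to 8.57), which overlapped each other. Levels of different members are not compared here, since each probe set has its own scale.

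**Figure D3:**
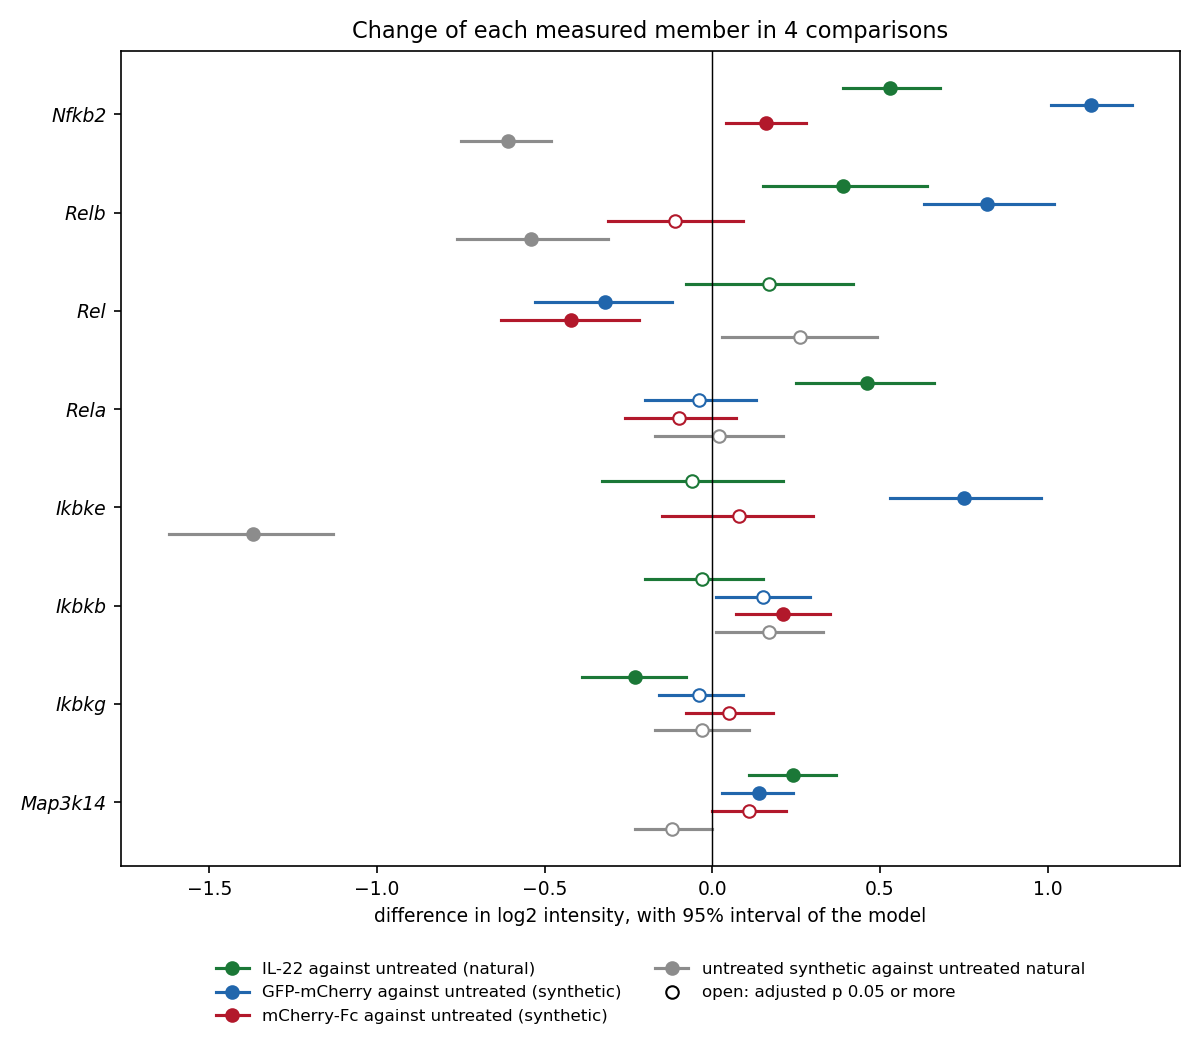
Difference in log2 intensity (horizontal axis) of each measured member (vertical axis) in 4 comparisons, with the model's 95% interval; filled points have an adjusted p under 0.05. The GFP-mCherry points of Nfkb2 (1.13), Relb (0.82) and Ikbke (0.75) lie farthest to the right, and the same 3 genes lie to the left in untreated synthetic against untreated natural cells.

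The IkB genes, which encode inhibitors and also nuclear IkB proteins, had the highest median change with GFP-mCherry among the 6 pathway lists. All 6 IkB genes rose with GFP-mCherry, with a median of 1.89 against -0.04 for all genes. Nfkbia, which encodes IkBα, the inhibitor that NF-kB itself induces, rose by 3.23 (SE 0.17, 9.37-fold, adjusted p = 1.57e-13), Nfkbie (IkBε) by 2.40 (SE 0.08, 5.27-fold) and Nfkbiz, which encodes a nuclear IkB protein, by 2.33 (SE 0.12, 5.01-fold). With IL-22, 3 of 6 rose (median 0.35 against -0.02). These were Bcl3, a nuclear IkB protein that works with p50 and p52, by 0.96 (SE 0.10, adjusted p = 6.63e-08), Nfkbid by 0.43 (adjusted p = 0.00178) and Nfkbib by 0.36 (adjusted p = 0.00142, or 0.0536 with the replicate block). mCherry-Fc raised Nfkbid by 0.60 (SE 0.08, adjusted p = 2.96e-06), Nfkbie by 0.51 (adjusted p = 3.27e-05) and Nfkbib by 0.24 (adjusted p = 0.00722, or 0.0732 with the block and 0.085 after quantile normalization), 3 of 6 in all (median 0.26). Between the synthetic receptor's ligands 5 of 6 were higher with GFP-mCherry. Of all genes 11.4% were called with IL-22, 26% with GFP-mCherry, 26.9% with mCherry-Fc and 1.09% between those ligands, and these shares hold for the lists that follow. In untreated cells 4 of 6 were lower in the synthetic line, with natural replicates 4 and 5 left out too, against 15.2% and 9.40% of all genes. This list and those that follow were chosen with earlier results of these data known. Counts above a share therefore describe a list and are no independent support.

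Negative regulators, most of them enzymes or adaptors that trim ubiquitin chains or degrade cytokine mRNA, numbered 10. With GFP-mCherry 6 rose and 1 fell (median 0.34), led by the RNase gene Zc3h12a at 2.20 (SE 0.08, adjusted p = 8.87e-17), Tnfaip3, which encodes A20, at 2.01 (SE 0.12, adjusted p = 1.7e-12) and Tnip3 at 1.14 (adjusted p = 7.05e-08). With IL-22 4 rose and 2 fell (median 0.09), with Tnip3 at 1.99 (SE 0.15, adjusted p = 2.75e-11), N4bp1 at 0.96 and Zc3h12a at 0.82. The 2 that fell were Tnfaip3 (-0.51, adjusted p = 0.0218) and Tnip1 (-0.44, adjusted p = 0.00567). Both rose with GFP-mCherry, Tnip1 by 0.70. With mCherry-Fc 3 rose and 1 fell (median 0.07). Otulin, a deubiquitinase of linear chains, rose by 0.32 and Zc3h12a by 0.30. Nlrc5 was called at -0.33 (adjusted p = 0.00119) on its brightest probe set and stood at 0.01 (adjusted p = 0.939) over the mean of all its probe sets. Of the 10, 5 were higher with GFP-mCherry than with mCherry-Fc. In untreated cells 4 were already lower in the synthetic line and none higher, against 15.2% of all genes. These were Tnip3 (-3.81), Tnip1 (-1.21), Tnfaip3 (-0.78) and Zc3h12a (-0.42), so the ligand responses of the lines start from different levels.

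Of 22 adaptors and ubiquitin enzymes upstream of the IKK complex, 18 were measured. IL-22 raised 4 and lowered 2 (median 0.08). Myd88, the adaptor of Toll-like and interleukin-1 receptors, rose by 2.25 (SE 0.19, 4.76-fold, adjusted p = 3.92e-10), Rnf31, the catalytic subunit of the linear ubiquitin ligase, by 0.91 and the ubiquitin ligase gene Birc3 by 0.70. GFP-mCherry raised 7 and lowered none (median 0.11), with Birc3 at 1.02 (SE 0.06, adjusted p = 1.39e-12), Traf1 at 0.84 and Myd88 at 0.51 (adjusted p = 0.015). mCherry-Fc raised 4 and lowered 1 (median 0.08), with Myd88 at 0.49 (adjusted p = 0.0187, or 0.0555 after quantile normalization and 0.053 without mCherry-Fc replicate 13), Rnf31 at 0.28 and Traf2 at 0.27 (adjusted p = 0.00686, or 0.0882 after quantile normalization). For mCherry-Fc the 5 called genes of 18 are close to the 26.9% of all genes. The 4 genes of the kinase TBK1 and its adaptors, partners of IKKε, gave no call with any ligand by limma, and 2 of them with IL-22 and none with the others had an unadjusted p under 0.05.

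Of 12 receptors that feed NF-kB, 11 were measured. IL-22 raised 5 (median 0.08), with the TNF receptors Tnfrsf1a at 1.29 (SE 0.08, adjusted p = 2.8e-13) and Tnfrsf1b at 0.78 and the interleukin-18 receptor chain Il18r1 at 0.65. GFP-mCherry raised 3 and lowered 1 (median -0.02), with Ltbr, the lymphotoxin receptor, at 0.51, Tnfrsf1b at 0.45 and Tnfrsf1a at 0.41. mCherry-Fc raised the same 3 genes, Ltbr by 0.54, Tnfrsf1b by 0.27 (adjusted p = 0.0202, or 0.0519 with the block, 0.0501 without untreated replicate 14 and 0.0524 without mCherry-Fc replicate 13) and Tnfrsf1a by 0.26, and lowered 1 (median -0.02). For both of these ligands 4 of 11 were called, against 26% and 26.9% of all genes, and the list median was near that of all genes, -0.04. None of the 11 passed limma's test between GFP-mCherry and mCherry-Fc, and 3 had an unadjusted p under 0.05.

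Among 24 known target genes, 23 were measured. IL-22 raised 10 and lowered none (median 0.09). The cytokine gene Il6 rose by 3.24 (SE 0.34, 9.47-fold, adjusted p = 3.68e-08), Tnf by 1.85 (SE 0.21, 3.61-fold) and the stress-response gene Ier3 by 1.75 (SE 0.32, 3.36-fold). GFP-mCherry raised 13 and lowered 1 (median 0.36), with Ier3 at 2.16 (SE 0.26), Tnf at 1.96 (SE 0.17) and Il6 at 1.78 (SE 0.28). mCherry-Fc raised 8 and lowered none (median 0.09), with Ier3 at 0.95 (SE 0.26, adjusted p = 0.00859), Il6 at 0.81 (SE 0.28, adjusted p = 0.0314) and Bcl2l1, which encodes the survival protein Bcl-xL, at 0.70 (SE 0.06, adjusted p = 9.49e-09). The called genes of the 23 stand against 11.4%, 26% and 26.9% of all genes for IL-22, GFP-mCherry and mCherry-Fc. The Il6 call was lost with the block (adjusted p = 0.113), under a trended robust prior (0.0564), with only its own groups fitted (0.0859) and without any of untreated replicates 7, 9 or 11 or mCherry-Fc replicates 13, 14 or 15 (0.0739 to 0.104). Of the 23, 6 were higher with GFP-mCherry than with mCherry-Fc, against 1.09% of all genes. In untreated cells 12 were lower in the synthetic than in the natural line, against 15.2% of all genes. With natural replicates 4 and 5 left out 9 were lower, against 9.40% of all genes. Apart from Tnfaip3 and Tnip1, for which the alternatives are not given here, the named IL-22 calls of these lists held with natural replicates 4 and 5 left out. Within the high numbers those of Nfkbib (adjusted p = 0.618), Nfkbid (0.754), Il18r1 (0.251), Tnf (0.132) and Ier3 (0.0523) were lost. Within the low numbers the mCherry-Fc calls of Nfkbib (0.0873), Traf2 (0.167), Zc3h12a (0.0877) and Tnfrsf1b (0.639) were lost.

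**Figure D4:**
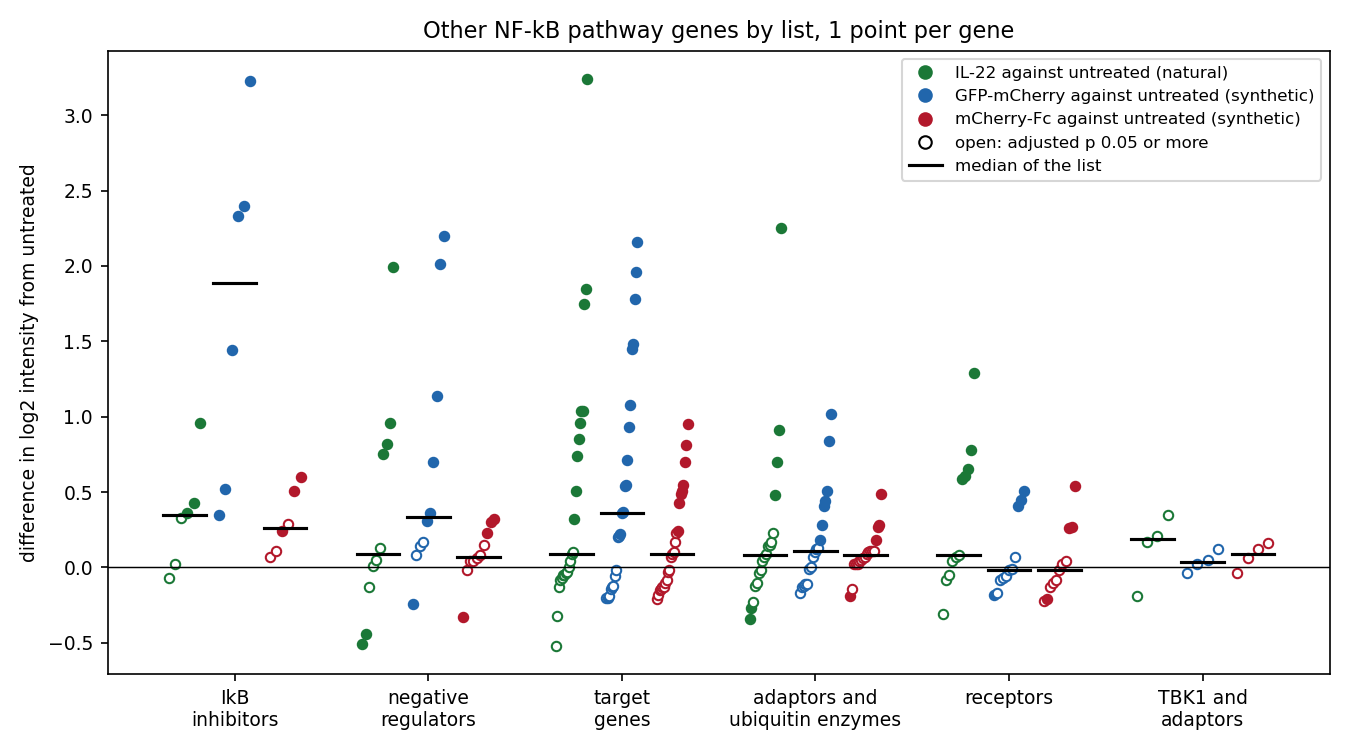
Difference in log2 intensity from untreated cells (vertical axis) for each measured gene of 6 pathway lists (horizontal axis), by ligand; filled points have an adjusted p under 0.05 and black lines are list medians. The IkB genes (labelled IkB inhibitors) with GFP-mCherry have the highest median, 1.89. The top points are Il6 with IL-22 (3.24) and Nfkbia with GFP-mCherry (3.23).

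Over the 26 arrays the genes most like each subunit were named by Pearson correlation, which describes these arrays and which the 5 groups largely set. For Nfkb2 they were Gpr84 (r = 0.97), Birc3 (0.97) and Icam1 (0.94), which fell to 0.59, 0.39 and 0.02 once group means were removed. For Relb they were Slc2a6 (0.94), Nfkb2 itself (0.93) and Gpr84 (0.91), which fell to 0.39, 0.62 and 0.36. Rel behaved in another way, with Med1 (0.90), Sik3 (0.89) and Scaf4 (0.88) at 0.92, 0.82 and 0.92 within groups. The same held for Rela, with Trp53bp2 (0.95), Plekhm1 (0.94) and I830077J02Rik (0.94) at 0.91, 0.91 and 0.89. Among the members the Nfkb2 and Relb levels correlated at 0.93 over all arrays. With natural replicates 4 and 5 left out (23 arrays) the values within groups were 0.19, 0.02 and -0.03 for the Nfkb2 genes, 0.40, 0.41 and -0.08 for the Relb genes, 0.90, 0.69 and 0.84 for the Rel genes and 0.64, 0.58 and 0.21 for the Rela genes, while the values over all 23 arrays were 0.86 to 0.98.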

How the data were processed

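The deposited values are log2 intensities of 35556 probe sets on 26 arrays, made by the authors with Affymetrix Expression Console 4.0, per the submitters' processing notes. The summary algorithm, background step and genome build are not given in the sources used here. Such summaries compress differences near background, and the number of arrays limits the precision. Of the probe sets, 21789 carried 1 gene symbol in the platform annotation, and the one with the highest mean stood for each of 19938 genes. Differences were fitted with limma 3.58.1 in R 4.3.3 (lmFit on 5 group means over all 26 arrays, then eBayes), with Benjamini-Hochberg adjustment over all genes and a threshold of 0.05 (two-sided). The method was tested on simulated data. No pair of arrays was identical.

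The members and the pathway and marker lists were chosen with earlier results of these data known. All members were named, the 3 genes most like each subunit by Pearson r, and from each list the 3 called genes with the largest change per ligand. The negative regulators that fell with IL-22 were named in addition.

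Replicate numbers are those of the titles. Same-numbered arrays deviated together at r = 0.31 to 0.62 between the natural groups, where 0.62 was number 5. Values were 0.26 to 0.47 between untreated and mCherry-Fc and 0.11 to 0.27 between GFP-mCherry and mCherry-Fc. Pairs best matched to their own number were 2, 1 and 1 of 3, in that order. The block fits join same-numbered arrays and the main fit does not. Between untreated and GFP-mCherry the 6 pairs ran from -0.15 to 0.42, with 2 best matched to their own number. The block fits join these too. Between the synthetic groups the best match of a high-numbered array was number 13 each time. That of a low-numbered array was number 9 or 10. These values therefore follow the number range and do not establish a pairing by number. Low numbers are natural 1 to 3 and synthetic 7 to 11, high numbers natural 4 and 5 and synthetic 12 to 15. Alternatives covered normalization, probe set choice, a filter on dim genes (means under the 20th percentile, 4.86), the variance prior, array weights, the groups fitted, a fixed or a random block for the replicate number, number ranges and leaving out each array.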

Additional observations from a re-analysis of the deposited data

Results flagged for a closer look

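Among the 40 sets of values of 1 member in 1 group, Dixon's test marked 3 single arrays that lay far from the rest of their group, where chance marks about 1 in 20 sets. Rel in IL-22 replicate 5 was at 10.00, with the nearest array at 10.57. Rela in the same array was at 10.14, with the nearest at 10.76. Ikbkg in untreated natural replicate 5 was at 8.17, with the nearest at 7.91. All 3 come from the natural arrays numbered 5, whose myeloid markers were high, and the part of those markers was not tested.

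The responses of the natural and synthetic receptor cells differed for several members by limma's test of the difference itself. GFP-mCherry against IL-22 gave 0.59 for Nfkb2, 0.82 for Ikbke, -0.50 for Rel and -0.49 for Rela. mCherry-Fc against IL-22 gave -0.37 for Nfkb2, -0.60 for Rel, -0.55 for Rela and -0.50 for Relb. The lines differ in more than their ligand, and the untreated levels of Nfkb2, Relb and Ikbke already differed between them, so ligand, receptor and line cannot be told apart in these values.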

How the results depend on the processing

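No member's called value turned its sign under any alternative. Of 1440 recomputed values of a member in a comparison, 1316 kept their side of the threshold, 81 lost a call and 43 gained one. Leaving out 1 array gave 3 to 7 called members for IL-22 (8.63% to 15.6% of all genes), 4 to 5 for GFP-mCherry (21.3% to 29.9%), 1 to 3 for mCherry-Fc (19.2% to 32.4%), 3 in each case for GFP-mCherry against mCherry-Fc (0.833% to 1.00%), 3 to 5 for the GFP-mCherry minus IL-22 response (10.7% to 17.2%), 3 to 6 for the mCherry-Fc minus IL-22 response (10.0% to 16.8%) and 3 to 4 for the untreated lines (10.3% to 16.9%). The count for IL-22, 5 with all arrays, was 1 with only its own groups fitted (fewer arrays, spread from natural cells, cause not tested). Within the high replicate numbers, where natural cells have 2 untreated arrays and 1 IL-22 array, it was 0. There the GFP-mCherry minus IL-22 response had 2 calls (4 with all arrays), the mCherry-Fc minus IL-22 response 0 (4) and the untreated lines 6 (3), and the cause was not tested. The share of all genes called moved the same way there, to 3.81% for IL-22, 4.59% and 4.37% for the response differences and 28.8% for the lines, from 11.4%, 13.6%, 13.4% and 15.2%. With the replicate block the counts were 4 for IL-22 (11.0% of all genes), 5 for GFP-mCherry (32.9%), 3 for mCherry-Fc (20%), 3 between those ligands (0.502%), 4 for the GFP-mCherry minus IL-22 response (15.4%) and 3 for the mCherry-Fc minus IL-22 response (12.8%). For GFP-mCherry against untreated, where 2 of 6 pairs were best matched to their own number, the block lost Map3k14 (adjusted p = 0.0605) and gained Ikbkb (0.0307). The block changed no other member's call beyond those given beside the results. Between the lines, which share no number, neither the fixed block nor the number range could be fitted as a term, while a random block could. Among the pathway genes named for the largest change 1 value turned its sign, Nlrc5 with mCherry-Fc, at 0.01 over the mean of its probe sets.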

Other observations

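Within groups, once group means were removed, several members moved together over the 26 arrays. Rel and Rela correlated at 0.88, Rel and Ikbkb at 0.84 and Nfkb2 and Rela at 0.77, while Ikbke was at -0.71 with Rela, -0.67 with Rel, -0.45 with Nfkb2 and 0.70 with Ikbkg. The values of Ikbke rest largely on the natural arrays numbered 4 and 5, whose myeloid markers were high, and the other pairs less so. With these 3 arrays left out (23 arrays), Rel and Rela were at 0.71, Rel and Ikbkb at 0.78 and Nfkb2 and Rela at 0.50. Ikbke was then at 0.46 with Rela, 0.01 with Rel, 0.48 with Nfkb2 and 0.34 with Ikbkg, so its negative values were not seen without those arrays. These are descriptions of arrays that share groups and replicate numbers, with no test.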
